A study of Homo sapiens with 6 samples.

Results

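The semaphorin guidance system was followed in T24 cells through 31 genes, namely 20 semaphorins, 9 plexins and 2 neuropilins. They were the genes, among the 63241 of the deposited table, whose symbols matched the naming patterns of these families. T24 is an established human bladder cancer line. It was transfected either with a control small interfering RNA (siNC, labelled as wild type, 3 libraries) or with RNA against USP43 (siUSP43, labelled as a USP43 knockdown, 3 libraries), and the series title ties this deubiquitinating enzyme to gemcitabine resistance and cholesterol homeostasis. The labels put the 6 samples in the same batch and give no time after transfection. They do not say whether replicate numbers mark separate cultures or, for siUSP43, different duplexes, so a p-value here speaks of the spread among these 6 libraries, and that spread may be technical.

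Semaphorins are guidance cues first known for steering axons, and they also act in blood vessels, immune cells and tumours. Class 3 members are secreted, classes 4 to 6 span the membrane, and SEMA7A is held by a lipid anchor. Plexins are the signalling receptors: their cytoplasmic part holds a GTPase-activating domain for Ras-family proteins of the R-Ras and Rap kind. Most class 3 semaphorins need a neuropilin beside a class A plexin to bind, and the neuropilins are also co-receptors for vascular endothelial growth factors. In carcinoma cells both cues and receptors are often made by the same cell.

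USP43 itself was at 2.36, 2.09 and 2.08 FPKM (fragments scaled to exonic length and sequencing depth) in siNC and at 1.02, 0.67 and 0.80 in siUSP43. The fitted log2 fold change was -1.40 (SE 0.14, edgeR p adjusted by Benjamini-Hochberg over all tested genes = 5.63e-06, as for every adjusted p given here), or -0.80 with limma on log2(FPKM + 1) and -0.77 after quantile normalization, and an exact two-sided permutation test gave p = 0.1, the smallest that 3 against 3 allows. Libraries held 21430574 to 25577200 gene counts, of which 32187 to 46652 fell on the 31 genes. The 5 epithelial markers summed to 466 to 541 FPKM over the 6 libraries and the mesenchymal marker VIM was at 392 to 451 FPKM. The 7 urothelial markers reached only 2.46 to 2.79 FPKM in siNC and 2.91 to 3.39 in siUSP43, and KRT20 was listed at 0. Most of this sum was PPARG, at 1.84 to 2.04 FPKM in siNC and 2.63 to 2.92 in siUSP43. GATA3 went the other way, at 0.40 to 0.46 and 0.21 to 0.30 FPKM, and each uroplakin was at or below 0.16 FPKM. All 5 endothelial markers lay below 0.1 FPKM in every library, and the 4 neuronal markers together reached 0.49 to 0.56 FPKM in siNC and 0.34 to 0.48 in siUSP43. Of the neuronal markers, MAP2 was at 0.25 to 0.32 FPKM in siNC and 0.12 to 0.15 in siUSP43. SYT1 went the other way, at 0.05 to 0.06 and 0.10 to 0.17 FPKM. The 5 fibroblast markers summed to 0.80 to 1.05 FPKM in siNC and 0.89 to 0.97 in siUSP43, with COL1A2 at 0.06 to 0.11 and 0.01 to 0.02 FPKM. The 4 immune markers, 3 of them below 0.1 FPKM in every library, summed to 0.89 to 1.06 FPKM in siNC and 0.41 to 0.56 in siUSP43. The part of the lists that differ between groups in the results was not tested.

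The balance of the system differed between the groups mainly through lower neuropilins, a lower semaphorin sum and higher PLXNA1. The lower semaphorin sum lay chiefly in SEMA4B and SEMA3C, and not every semaphorin fell. A mean of at least 1 FPKM over the 6 libraries was asked for testing, and 21 of the 31 genes reached it. Of these 21, 4 rose (SEMA3E, SEMA7A, PLXNA1 and PLXNA2), 14 fell and 3 did not pass at an adjusted p under 0.05, so 85.7% were called, where 56.1% of all 11417 tested genes were. By direction, 28% of all tested genes rose and 28.1% fell. The median log2 fold change of the 21 was -0.33, against -0.01 over all genes tested. At least 1.5-fold and called were 2 that rose and 9 that fell, where 6.25% and 7.96% of all tested genes did so. FPKM of the groups did not overlap for 19 of the 21, against 62.2% of all tested genes. NRP2, SEMA3E, SEMA3F and SEMA6C reached the filter through their higher group alone, so these counts describe the genes that were tested and not the family. Of the 10 genes below it, 6 could be fitted with the laxer filterByExpr rule of edgeR, where 1 rose and 3 fell beside 48.3% called of all 16280 genes. Without any filter the same 4 of the 10 were called, beside 23.3% of 33934 genes. In bulk RNA, fewer cells making a transcript and less of it per cell cannot be told apart.

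**Figure D1:**
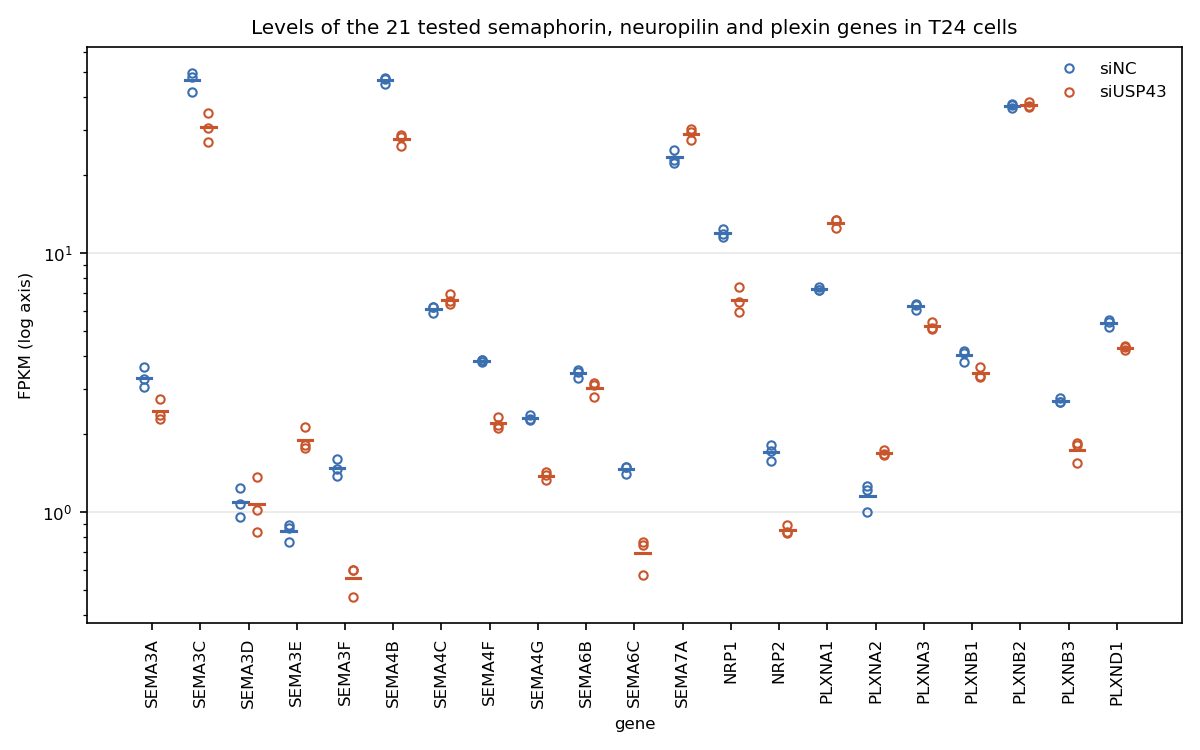
FPKM on a log axis of the 21 tested genes, with a circle for each library and a bar for the mean of the 3 siNC (blue) or 3 siUSP43 (orange) libraries. SEMA3C, SEMA4B, PLXNB2 and SEMA7A are the highest, and the groups overlap for SEMA3D and PLXNB2.

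**Figure D2:**
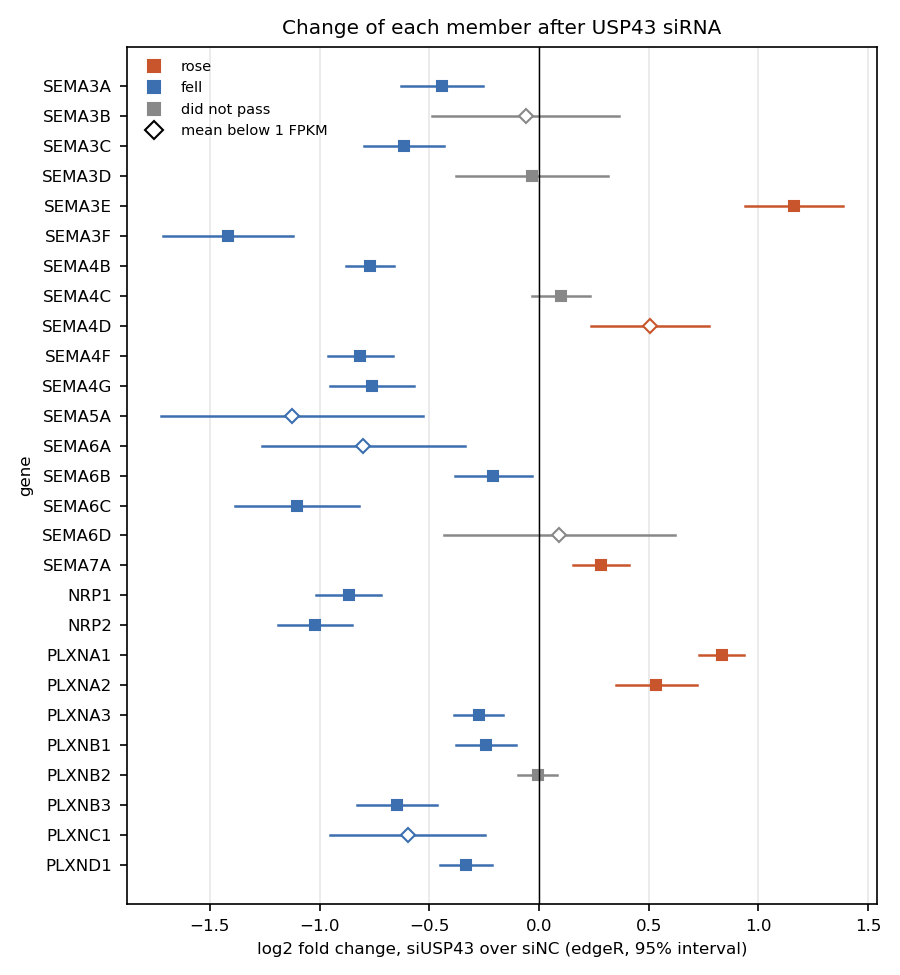
Log2 fold change, siUSP43 over siNC, with its 95% interval from edgeR, for 27 genes. Filled squares are the 21 tested genes and open diamonds the 6 genes below a mean of 1 FPKM that a laxer filter kept. SEMA3F lies farthest to the left at -1.42 and SEMA3E farthest to the right at 1.16.

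Promoter windows of 4 genes are shown because they form 2 pairs that moved in opposite directions, the receptors PLXNA1 (rose) and NRP2 (fell) and the ligands SEMA3E (rose) and SEMA3F (fell). Each window runs from 250 bases before to 50 after a RefSeq start site on GRCh38.p14, 5′ to 3′ on the gene's strand, with CpG dinucleotides in capitals. For SEMA3E and SEMA3F, which have several start sites in RefSeq, the window nearest the outer end of the gene in the deposited table is printed. The windows are chr3:126982865-126983164 (plus strand) for PLXNA1, chr2:205682251-205682550 (plus strand) for NRP2, chr7:83649090-83649389 (minus strand) for SEMA3E and chr3:50154808-50155107 (plus strand) for SEMA3F.
PLXNA1: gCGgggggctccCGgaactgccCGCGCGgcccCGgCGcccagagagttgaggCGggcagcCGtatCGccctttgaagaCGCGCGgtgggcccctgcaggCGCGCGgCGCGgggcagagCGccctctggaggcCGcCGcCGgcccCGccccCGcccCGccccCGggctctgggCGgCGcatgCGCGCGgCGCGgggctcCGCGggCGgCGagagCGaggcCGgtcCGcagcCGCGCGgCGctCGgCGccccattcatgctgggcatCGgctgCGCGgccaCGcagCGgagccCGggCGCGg
NRP2: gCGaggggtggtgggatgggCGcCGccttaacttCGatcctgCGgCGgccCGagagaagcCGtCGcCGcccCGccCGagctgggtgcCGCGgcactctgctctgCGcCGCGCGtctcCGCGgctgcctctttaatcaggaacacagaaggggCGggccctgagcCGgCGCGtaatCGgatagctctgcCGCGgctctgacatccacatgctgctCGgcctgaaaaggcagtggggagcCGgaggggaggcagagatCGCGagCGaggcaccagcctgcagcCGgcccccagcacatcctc
SEMA3E: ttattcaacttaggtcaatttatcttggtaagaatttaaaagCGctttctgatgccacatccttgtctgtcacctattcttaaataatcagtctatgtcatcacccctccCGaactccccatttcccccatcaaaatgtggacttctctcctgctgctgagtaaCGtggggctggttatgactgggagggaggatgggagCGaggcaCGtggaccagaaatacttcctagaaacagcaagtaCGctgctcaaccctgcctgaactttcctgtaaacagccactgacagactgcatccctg
SEMA3F: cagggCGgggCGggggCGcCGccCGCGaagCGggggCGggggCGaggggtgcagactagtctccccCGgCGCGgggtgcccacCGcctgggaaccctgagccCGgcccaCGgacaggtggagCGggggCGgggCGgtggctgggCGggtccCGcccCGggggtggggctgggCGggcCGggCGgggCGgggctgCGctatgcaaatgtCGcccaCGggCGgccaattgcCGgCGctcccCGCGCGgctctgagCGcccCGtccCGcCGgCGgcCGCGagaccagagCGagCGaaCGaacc
The SEMA3E window held 6 CpG dinucleotides, that of NRP2 33, that of SEMA3F 44 and that of PLXNA1 54, while the median over 12391 windows of tested genes was 26. E2F1, the transcription factor named in the series title, rose in siUSP43 (log2 fold change 0.48, SE 0.08, edgeR adjusted p = 2.05e-04). Its binding letters TTTCCCGC, TTTGGCGC, TTTCGCGC and TTTGCCGC were therefore searched on both strands. None was found in the 48 windows of the 27 genes with an entry, where 5.32% of windows of tested genes and 3.31% of all 35116 windows of the same length hold at least 1 of them. No match says only that these letters are not in these windows, and which start sites T24 cells use was not tested. NRP1, SEMA3A, SEMA6A and SEMA6B had no entry.

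Among the secreted class 3 semaphorins, SEMA3C, a cue for vessels and migrating cells, was the most abundant. Its level was 49.5, 47.8 and 42.0 FPKM in siNC and 30.4, 26.9 and 34.8 FPKM in siUSP43. Every siUSP43 library lay below every siNC library. It fell by 0.61 on the log2 scale (SE 0.08, edgeR adjusted p = 6.83e-05), from 46.5 ± 3.92 to 30.7 ± 3.96 FPKM (SD, n = 3 each). SEMA3C made up 86.5 to 86.8% of summed class 3 FPKM in siNC and 82.6 to 83.0% in siUSP43.

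SEMA3F and SEMA3E had the largest edgeR log2 fold changes of the 21 tested genes, in opposite directions. SEMA3F, which binds through NRP2 and is known for restraining tumour vessels, was at 1.47, 1.60 and 1.38 FPKM in siNC and 0.60, 0.47 and 0.60 in siUSP43. That is a log2 fold change of -1.42 (SE 0.14, edgeR adjusted p = 4.28e-06), the 85th largest decrease of 11417 tested genes. SEMA3E, which can bind PLXND1 without a neuropilin, was at 0.87, 0.89 and 0.77 FPKM in siNC and 1.81, 1.77 and 2.14 in siUSP43. The log2 fold change was 1.16 (SE 0.10, edgeR adjusted p = 2.24e-06), the 105th largest increase. The ratio of SEMA3E to SEMA3F FPKM was 0.56 to 0.59 over the siNC libraries and 3.02 to 3.77 over the siUSP43 libraries, so the rarer of these ligands in siNC was the commoner in siUSP43. This pair was chosen after the values were seen, as the largest rise and fall of the 21, so a large ratio change follows from the choice. Each gene also reached the filter through its higher group alone, which bears on both ranks. Both genes are low, with 57 to 225 counts per library for SEMA3F and 190 to 546 for SEMA3E. On log2(FPKM + 1) with limma their changes were -0.67 and 0.66, since the added 1 is large beside such levels. There PLXNA1 (0.77), NRP1 (-0.77) and SEMA4B (-0.80 to -0.73 over the 15 alternatives) exceeded both. In GENCODE release 29 SEMA3F shares 2.28% of its exonic bases with SEMA3F-AS1 on the other strand, at a mean of 0.428 FPKM.

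SEMA3A, the founding repellent of the class and a ligand of NRP1, was at 3.62, 3.26 and 3.04 FPKM in siNC and 2.37, 2.28 and 2.73 in siUSP43. The groups did not overlap, and it fell by 0.44 on the log2 scale (SE 0.08, edgeR adjusted p = 8.65e-04). SEMA3D, at 1.24, 1.08 and 0.96 FPKM against 1.02, 0.84 and 1.37, overlapped between groups. Its log2 fold change was -0.03 with a 95% interval from -0.38 to 0.32, and smaller changes in either direction were not detectable here. SEMA3B had 51, 59 and 64 counts in siNC and 71, 40 and 54 in siUSP43, and SEMA3G had 1 to 11 counts per library. Neither reached the filter, and SEMA3B did not pass in the fit with edgeR's filterByExpr (log2 fold change -0.06, SE 0.20, adjusted p = 0.823).

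SEMA3C, SEMA3E, SEMA3A and SEMA3D lie in this order on chromosome 7 (GRCh38), all on the minus strand, from 80742538 to 85187056. A gap of 307 kb separates the gene bodies of SEMA3E and SEMA3A, and these neighbours moved in opposite directions. Between SEMA3C and SEMA3E, 2441 kb apart, the tested genes CACNA2D1 and PCLO rose with log2 fold changes of 0.74 and 0.68 (edgeR adjusted p under 0.05). PCLO, at 0.78 FPKM in siNC and 1.27 in siUSP43, reached the filter through its higher group alone, as SEMA3E did. These non-family neighbours were named after their values were seen.

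Class 4 semaphorins span the membrane and signal mainly through class B plexins. SEMA4B, at a mean level close to that of SEMA3C in siNC, was at 44.9, 47.5 and 47.2 FPKM in siNC and 28.7, 28.2 and 25.9 FPKM in siUSP43, with a wide gap between the groups. It fell by 0.77 on the log2 scale (SE 0.05, edgeR adjusted p = 2.11e-07), from 46.5 ± 1.40 to 27.6 ± 1.45 FPKM (SD, n = 3 each). SEMA4F was at 3.80, 3.88 and 3.86 FPKM against 2.18, 2.11 and 2.34, a log2 fold change of -0.81 (SE 0.07, edgeR adjusted p = 1.44e-06). These 2 genes thus changed by similar factors at very different levels.

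SEMA4G was at 2.30, 2.26 and 2.38 FPKM in siNC and 1.39, 1.43 and 1.33 in siUSP43. Its log2 fold change was -0.76 (SE 0.09, edgeR adjusted p = 1.98e-05), or -0.48 with limma on log2(FPKM + 1). In GENCODE release 29, 22.3% of its exonic bases are shared with MRPL43 on the other strand, which had a mean of 16.5 FPKM and fell by 0.52 (SE 0.07). Strand use in counting is not given in the sources used here, so the reads of SEMA4G and MRPL43 cannot be told apart there. SEMA4C, a ligand of PLXNB2, had 5.88, 6.20 and 6.21 FPKM against 6.55, 6.93 and 6.36. The groups did not overlap, but the log2 fold change of 0.10 did not pass (95% interval -0.03 to 0.23; edgeR, adjusted p = 0.184).

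SEMA4D, known from T cells and as the ligand of PLXNB1, lay below the filter with 142, 115 and 125 counts in siNC and 176, 170 and 187 in siUSP43. In the filterByExpr fit it rose, with a log2 fold change of 0.50 (SE 0.13, edgeR adjusted p = 0.00429). SEMA4A had 0 to 6 counts per library. Summed over class 4, FPKM ran from 57.3 to 60.1 in siNC and from 36.4 to 39.2 in siUSP43, and SEMA4B supplied 78.4 to 79.0% and 71.2 to 73.1% of it.

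Transmembrane classes 5 and 6 were sparse. SEMA6C had 1.41, 1.5 and 1.5 FPKM in siNC and 0.77, 0.75 and 0.57 in siUSP43, a log2 fold change of -1.10 (SE 0.13, edgeR adjusted p = 2.13e-05), or -0.54 with limma on log2(FPKM + 1). SEMA6B, a class 6 ligand of class A plexins, was at 3.29, 3.48 and 3.55 FPKM against 3.16, 3.10 and 2.78. Its log2 fold change of -0.21 passed narrowly (SE 0.08, edgeR adjusted p = 0.0428), and the call ended in 12 of 15 alternatives (adjusted p = 0.0437 to 0.132 over the 15). SEMA6A had 67, 76 and 71 counts against 56, 34 and 31, and SEMA5A 32, 34 and 30 against 16, 15 and 12. Both lay below the filter and fell in the filterByExpr fit, with log2 fold changes of -0.80 (SE 0.22, adjusted p = 0.00710) and -1.13 (SE 0.28, adjusted p = 0.00408). SEMA6D, with 44 to 84 counts per library, did not pass there (0.09, SE 0.25, adjusted p = 0.78), and SEMA5B had 0 to 2 counts.

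SEMA7A, the lipid-anchored member that signals through PLXNC1 or integrins containing ITGB1, rose, unlike SEMA3C and SEMA4B, the other two semaphorins above 20 FPKM. Its level was 22.3, 22.9 and 25.0 FPKM in siNC and 30.0, 29.2 and 27.2 in siUSP43. The lowest siUSP43 library lay above the highest siNC library, and the log2 fold change was 0.28 (SE 0.06, edgeR adjusted p = 0.00154). Together the 20 semaphorins summed to 142 ± 2.23 FPKM in siNC and 108 ± 2.73 FPKM in siUSP43 (SD, n = 3 each). SEMA3C, SEMA4B and SEMA7A made up 82.1 to 82.3% of the sum in siNC and 80.2 to 80.9% in siUSP43.

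**Figure D3:**
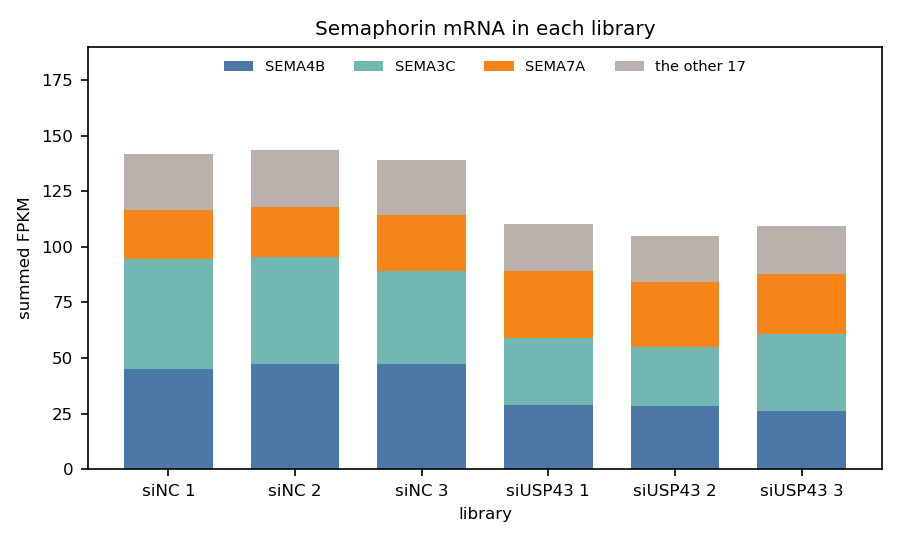
Summed FPKM of the 20 semaphorins in each of the 6 libraries, stacked by gene. The sum runs from 139 to 144 in siNC and from 105 to 110 in siUSP43, with SEMA4B and SEMA3C shorter and SEMA7A taller in siUSP43.

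Both neuropilins fell. NRP1 (ENSG00000099250, chromosome 10, 33177492 to 33336262, minus strand), the co-receptor for SEMA3A and for VEGFA, was at 12.3, 11.8 and 11.6 FPKM in siNC and 6.49, 5.95 and 7.37 FPKM in siUSP43. All siUSP43 libraries were far below all siNC libraries, with a log2 fold change of -0.87 (SE 0.07, edgeR adjusted p = 9.42e-07). NRP2 (ENSG00000118257, chromosome 2, 205681990 to 205798133, plus strand), which prefers SEMA3F and also binds VEGFC, was at 1.82, 1.58 and 1.72 FPKM in siNC and 0.83, 0.84 and 0.89 in siUSP43. The change was -1.02 on the log2 scale (SE 0.08, edgeR adjusted p = 6.91e-07), and -0.55 with limma on log2(FPKM + 1). NRP1 remained the main neuropilin, at 6.72 to 7.49 times NRP2 in siNC and 7.08 to 8.28 times in siUSP43, ranges that overlap.

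Class A plexins, the usual partners of neuropilins, split. PLXNA1 (ENSG00000114554, chromosome 3, 126982693 to 127037389, plus strand) rose from 7.21, 7.43 and 7.23 FPKM in siNC to 13.5, 12.5 and 13.5 FPKM in siUSP43. With a log2 fold change of 0.83 (SE 0.05, edgeR adjusted p = 7.82e-08), it changed far beyond the spread within either group. PLXNA2, a receptor for class 6 semaphorins as well, had 1.22, 1.26 and 1.00 FPKM against 1.68, 1.67 and 1.74, and rose by 0.53 (SE 0.08, edgeR adjusted p = 2.18e-04; 0.32 with limma on log2(FPKM + 1)). PLXNA3 went the other way, from 6.05, 6.32 and 6.38 FPKM to 5.44, 5.11 and 5.12, a fall of 0.28 (SE 0.05, edgeR adjusted p = 7.33e-04). PLXNA4 had 0 to 3 counts per library. PLXNA1 accordingly supplied 49.5 to 49.8% of class A FPKM in siNC and 64.8 to 66.2% in siUSP43.

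Set side by side, NRP1 stood at 1.59 to 1.71 times PLXNA1 in the siNC libraries and at 0.48 to 0.55 times in the siUSP43 libraries, so the order of these 2 receptor mRNAs was turned. Over the whole pair of families, the ratio of summed neuropilin to summed class A plexin FPKM was 0.93 ± 0.04 in siNC and 0.37 ± 0.03 in siUSP43 (SD, n = 3 each). The ratios were chosen after the values were seen and carry no test. They compare mRNA per exonic length, and protein was not analysed here.

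**Figure D4:**
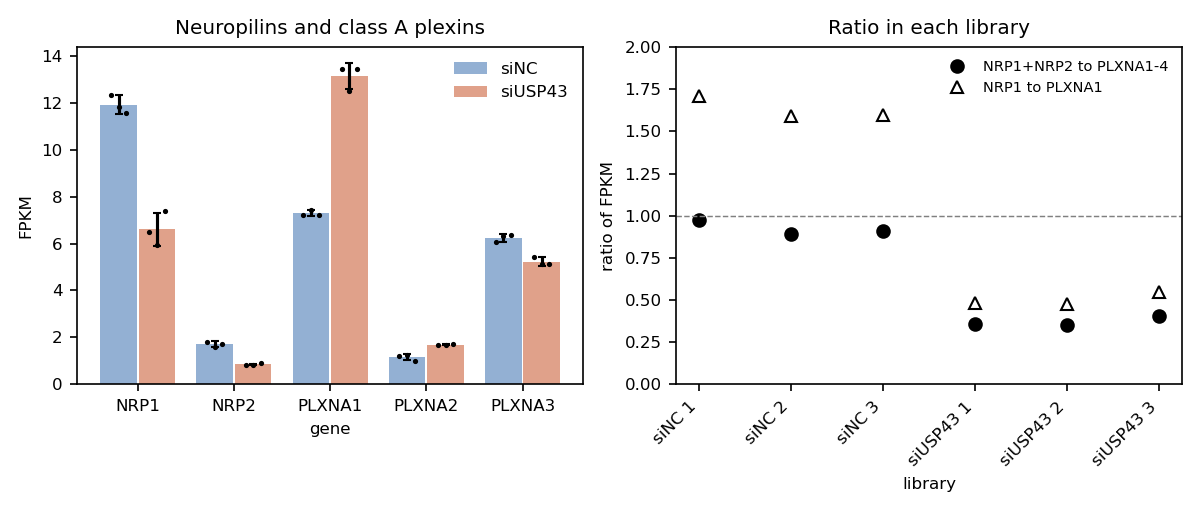
Left, FPKM of the neuropilins and the 3 class A plexins above the filter, with bars for the mean, lines for the SD of 3 libraries and points for each library. Right, the ratio of NRP1 to PLXNA1 (triangles) and of summed neuropilins to summed class A plexins (circles) in each library, which lies at 0.89 to 1.71 in siNC and 0.35 to 0.55 in siUSP43.

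PLXNB2, a class B receptor for SEMA4C, was the most abundant plexin, and its groups overlapped at 37.2, 37.5 and 36.5 FPKM against 38.3, 37.0 and 36.7. Its log2 fold change was -0.01 with a 95% interval from -0.09 to 0.08. PLXNB3, a receptor of SEMA5A, was at 2.66, 2.66 and 2.75 FPKM in siNC and 1.85, 1.81 and 1.55 in siUSP43, and fell by 0.65 on the log2 scale (SE 0.08, edgeR adjusted p = 4.66e-05; -0.42 with limma after quantile normalization). PLXNB1, the SEMA4D receptor, fell by 0.24 (SE 0.06, edgeR adjusted p = 0.00623), from 4.11, 4.19 and 3.79 FPKM to 3.63, 3.34 and 3.37. In GENCODE release 29 PLXNB3 shares 20.4% of its exonic bases with SRPK3 on the same strand, which had a mean of only 0.10 FPKM.

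PLXND1, the SEMA3E receptor of vessels, was at 5.43, 5.50 and 5.19 FPKM in siNC and 4.38, 4.23 and 4.34 in siUSP43. The groups stood apart and it fell by 0.33 (SE 0.05, edgeR adjusted p = 2.63e-04). PLXNC1, the SEMA7A plexin, had 93, 95 and 117 counts against 69, 50 and 80, lay below the filter, and fell by 0.60 in the filterByExpr fit (SE 0.16, edgeR adjusted p = 0.00814). It shares 1.79% of its exonic bases with CEP83 on the other strand, at a mean of 1.89 FPKM and a log2 fold change of -0.18 (SE 0.09). It also shares 2.25% with an unnamed gene on that strand, at a mean of 0.328 FPKM. Since strand use in counting is not given, reads in these shared bases cannot be told apart. In order of siNC level the plexins ran PLXNB2, PLXNA1, PLXNA3, PLXND1, PLXNB1, PLXNB3 and PLXNA2. In siUSP43 PLXNB2 and PLXNA1 stayed first and second and the libraries of PLXNA3 and PLXND1 stayed apart, while PLXNB3 and PLXNA2 came to overlap.

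Known ligands and receptors are set side by side here, with no test between them. SEMA3F and its co-receptor NRP2 both fell. So did SEMA5A, in the filterByExpr fit, and its receptor PLXNB3, while neither SEMA4C nor its receptor PLXNB2 passed. SEMA3E rose while PLXND1 fell, and SEMA4D rose while PLXNB1 fell, the SEMA4D call being from the filterByExpr fit. SEMA7A rose with ITGB1, whose log2 fold change was 0.43 (SE 0.07, edgeR adjusted p = 2.74e-04), while PLXNC1 fell. The integrin chain ITGA1, also listed as a co-receptor, lay below the filter. It fell by 0.70 in the filterByExpr fit (SE 0.08, edgeR adjusted p = 7.17e-06). SEMA3A and NRP1 both fell while PLXNA1 rose. Whether any of these directions bears on signalling was not tested.

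Of the 61 genes listed as partners of this system, 43 were tested; 14 rose and 19 fell, or 76.7% called where 56.1% of all tested genes were. Their median log2 fold change was 0.03. The vascular endothelial growth factors that bind neuropilins fell in the 4 tested cases, beside 28.1% of all tested genes. VEGFD lay below the filter, and PGF, at 1.63 FPKM in siNC and 0.843 in siUSP43, reached it through its higher group alone. VEGFA was at 10.7, 10.8 and 10.2 FPKM in siNC and 4.51, 4.47 and 4.65 in siUSP43 (log2 fold change -1.23, SE 0.05). PGF, the placental growth factor, had -0.97 (SE 0.11; -0.51 with limma on log2(FPKM + 1)), VEGFB -0.36 (SE 0.09) and VEGFC -0.31 (SE 0.05). Each of the 4 passed (edgeR adjusted p = 4.58e-09 to 0.00584). Their receptor kinases KDR and FLT1 were at or below 0.07 FPKM in every library.

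Among 12 co-receptors 5 were tested, with 1 that rose (ITGB1) and 3 that fell, or 80% called beside 56.1% of all tested genes. MET, a kinase that class B plexins can couple to, fell from 43.9, 42.5 and 39.8 FPKM to 25.8, 26 and 30.6, a log2 fold change of -0.63 (SE 0.07, edgeR adjusted p = 8.72e-06). Its relative MST1R and the NRP1-binding adhesion molecule L1CAM had log2 fold changes of -0.48 (SE 0.08; -0.31 with limma after quantile normalization) and -0.32 (SE 0.04). Of 7 processing proteases 4 were tested and 75% called, beside the same 56.1%. FURIN, which cleaves class 3 semaphorins, rose by 0.21 (SE 0.05), whereas the shedding proteases ADAM10 and MMP14 fell by 0.52 (SE 0.07) and 0.28 (SE 0.04). All of these passed the test (edgeR adjusted p under 0.05).

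Inside the cell, 6 of the 14 tested GTPases and regulators rose and 5 fell, or 78.6% called beside 56.1% of all tested genes. The calls of RRAS, RANBP9, RHOD and RAP1B ended in 3, 6, 7 and 13 of 15 alternatives. RAC1, which binds plexins and drives protrusion, rose from 28.4, 27.8 and 28.2 FPKM to 52.6, 51.4 and 52.3 (log2 fold change 0.87, SE 0.04; edgeR adjusted p = 1.54e-08). FARP2, an exchange factor bound by class A plexins, rose by 0.33 (SE 0.08). ARHGEF11, an exchange factor that class B plexins recruit, fell by 0.64 (SE 0.06) and the R-Ras relative RRAS2 by 0.52 (SE 0.04). Of 16 tested effectors 6 rose and 5 fell, or 68.8% called beside 56.1%, and the call of MICAL3 ended in 3 of 15 alternatives. MICAL2, of the actin-oxidising family that acts downstream of plexins, rose by 0.61 (SE 0.05). In the same family MICAL3 rose by 0.29 (SE 0.09) and MICAL1 fell by 0.36 (SE 0.07). The cytoskeletal kinase ROCK2 rose by 0.52 (SE 0.05), while the semaphorin mediator CRMP1 fell by 0.54 (SE 0.07) and its kinase CDK5 by 0.41 (SE 0.10). Each passed the same test. For GIPC1, which binds the NRP1 tail, the change of 0.14 (log2) did not pass (edgeR adjusted p = 0.132), but passed at 0.22 without siUSP43 replicate 3.

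**Figure D5:**
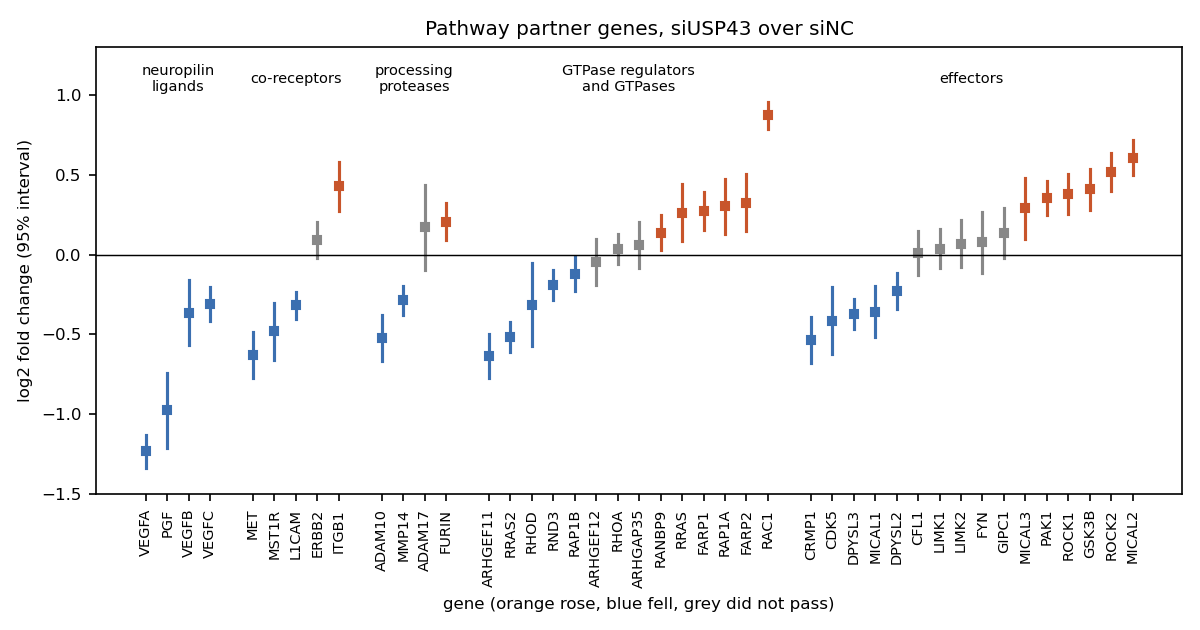
Log2 fold change, siUSP43 over siNC, with its 95% interval from edgeR, for the 43 tested partner genes in 5 groups. All 4 neuropilin ligands lie below 0, and RAC1 is the highest at 0.87.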

How the data were processed

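Total RNA (2 μg per sample) from 6 T24 samples was sequenced, per the labels' protocols. The authors deposited raw read counts per gene and FPKM for every sample, per the file headers. The submitters' processing notes name cutadapt 2.6, HISAT2 2.2.1 and GRCh38, while the counter, annotation release and strand setting are not given in the sources used here. From the counts, edgeR 4.0.16 in R 4.3.3 fitted group alone by quasi-likelihood with TMM scaling, for genes averaging 1 FPKM or more plus USP43 and E2F1. Benjamini-Hochberg adjustment ran over all tested genes, two-sided, with calls under 0.05. SEs are the log2 fold change over the root of F. Genes below the filter were taken from a fit with filterByExpr. limma 3.58.1, DESeq2 1.42.0, other scalings, filters, the replicate block and left-out libraries were alternatives. The test was checked on simulated data with 200 of 11417 genes changed, far fewer than were called in the real data. There it recovered 42.8% of 1.2-fold and 90.4% of 1.5-fold changes, and 6.41% of calls were false. Every member may be named, and of each partner list up to 4 called genes by size of change and direct binders of members. Members and lists were chosen with earlier results of these data known.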

Additional observations from a re-analysis of the deposited data

How the results depend on the processing

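Of the 21 tested members, 20 kept their call (rose, fell or not passed) in all 15 alternatives, and SEMA6B is the exception. Members called numbered 17 to 18 in the other fits on the same genes and 21 with filterByExpr or without a filter. The same 4 of the 10 members below 1 FPKM passed in both of these. Without a filter edgeR gave adjusted p-values from 1.06e-47 for NRP1 to 0.107 for SEMA6B among the members called in the main fit. SEMA6B was thus not called without a filter. Apart from this range, only the calls of that fit are given here. With the replicate block, 17 members and 5616 of all genes were called, against 18 and 6409. Deviations from the group mean had correlations of -0.03, -0.14 and -0.30 between same-numbered libraries and -0.17 to 0.28 between differently numbered ones. Deviations within so small a group are tied to each other, so these values cannot say whether the numbers mark pairs. The block changed no member's call but that of SEMA6B (edgeR adjusted p = 0.0939). Leaving out each library called 17 to 18 members and 5428 to 6548 genes. Genes with fewer than 100 counts per library, such as SEMA5A and SEMA6A, have intervals wide enough to limit what can be said of their size of change.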

Other observations

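Other guidance families held 17 tested genes among 42, of which 3 rose and 9 fell, or 70.6% called beside 56.1% of all tested genes (28% rose and 28.1% fell). EPHA4, which fell, was at 1.35 FPKM in siNC and 0.68 in siUSP43 and reached the filter through its higher group alone. Chosen after their values were seen, NTN4, a netrin of basement membranes, rose from 2.14 to 5.15 FPKM (log2 fold change 1.25, SE 0.10) and EFNB3, an ephrin, fell from 3.82 to 1.00 FPKM (-1.94, SE 0.13; edgeR, Benjamini-Hochberg adjusted p under 0.05 for both).

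Antisense RNAs named for members were low. PLXNB3-AS1 had 1.48, 1.48 and 1.73 FPKM in siNC and 2.28, 1.71 and 1.80 in siUSP43 and did not pass (log2 fold change 0.29, SE 0.19; edgeR adjusted p = 0.207). SEMA3F-AS1 had 0.57, 0.49 and 0.49 FPKM against 0.31, 0.27 and 0.44, below the filter.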
